A study of Rattus norvegicus with 15 samples.

Results

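Muc4, Krt75, Myh6, RGD1560925, Lamb3 and Myoc are 6 of the 20375 genes listed for whole rat retina, and they were chosen by their differences in level, as genes with large falls, outside the photoreceptor genes, when retinas that had received human cells were set against Sham or untreated (NT) retinas. All 6 were among the 15424 genes whose mean level reached the low-value limit used for testing. The comparisons of cell-treated retinas with Sham and with NT therefore chose the genes, and their values in those comparisons are a description without a test. Only Sham with NT and the cell-treated groups with each other were tested, and these comparisons use the same libraries as the choice did. A choice for falls from Sham favours high Sham values, and a choice for falls from NT favours high NT values. Either choice also favours low values in the cell-treated group that was used. The p-values of the 6 genes in the tests are therefore not independent of the choice.

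The retinas came from wild-type Sprague-Dawley rats at post-natal week 12, in 5 groups of 3 libraries each. NT rats received neither cells nor sodium iodate (NaIO3), an oxidant that damages the retinal pigment epithelium (RPE) and then the photoreceptors. Rats of the other 4 groups, Sham, MSC, MSCEPO and DPSC, received NaIO3 into the circulation at 40 mg/kg, and their retinas were taken on post-transplant day 31. Sham eyes had an intravitreal injection of vehicle before the NaIO3, MSC eyes had mesenchymal stem cells of human Wharton's jelly, and MSCEPO eyes had such cells transduced with a lentivirus carrying human erythropoietin. The label DPSC is not explained in the sources used here beyond being a further cell group. Rats given human cells were also given dexamethasone and then cyclosporin per the labels, and the labels do not give these drugs for Sham or NT, so the cells and the immune suppression cannot be told apart in any comparison with Sham or NT. The needle entered through a puncture of the cornea, and whole retinas were dissected. Nothing in the labels names the animals, so the p-values measure the spread between these libraries.

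Values are regularized log (rlog) values, a log2 scale that the authors corrected for library size and that draws each library toward the gene's mean. A difference of 1 is a 2-fold difference, and differences of low genes are understated. Levels are compared between libraries of one gene and never between genes, because rlog values are not per gene length. Reads were assigned to the rat alone, so reads of the injected human cells that may have entered a rat gene were not counted apart. The depth of the libraries is unknown from these values.

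Of the 6 genes, 5 are best known outside the photoreceptors. Muc4 encodes a membrane-bound mucin of wet epithelia such as cornea and conjunctiva, and Krt75 a keratin of hair follicle and stratified epithelium. Myh6 encodes the alpha heavy chain of cardiac myosin. Lamb3 encodes the beta chain of laminin-332, a basement membrane protein that anchors epithelia through hemidesmosomes, and Myoc encodes myocilin, a secreted olfactomedin-domain protein of the trabecular meshwork and ciliary body that glucocorticoids raise there. RGD1560925 has a provisional name, and RefSeq lists it as a synonym of Pdzph1.

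The promoter windows of the 6 genes were read from RefSeq on the assembly GRCr8, 250 bases before each start, and all 6 were found. They are shown because Krt75, RGD1560925 and Myoc stand for the 3 patterns of level described next. The window of Krt75 is chr7:134576075-134576324 on the minus strand, that of RGD1560925 is chr9:106176712-106176961 on the minus strand, and that of Myoc is chr13:77509713-77509962 on the plus strand. Capitals mark the match to a searched motif.
Krt75: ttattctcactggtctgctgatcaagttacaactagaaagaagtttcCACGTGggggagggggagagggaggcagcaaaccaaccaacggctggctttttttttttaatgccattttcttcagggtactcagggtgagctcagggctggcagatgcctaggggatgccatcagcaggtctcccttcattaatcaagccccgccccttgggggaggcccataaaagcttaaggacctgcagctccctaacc
RGD1560925: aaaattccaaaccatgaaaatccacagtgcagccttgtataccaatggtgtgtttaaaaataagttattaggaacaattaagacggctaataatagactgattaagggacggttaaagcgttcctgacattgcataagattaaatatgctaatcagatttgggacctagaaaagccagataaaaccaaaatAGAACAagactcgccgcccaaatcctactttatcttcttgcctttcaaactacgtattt
Myoc: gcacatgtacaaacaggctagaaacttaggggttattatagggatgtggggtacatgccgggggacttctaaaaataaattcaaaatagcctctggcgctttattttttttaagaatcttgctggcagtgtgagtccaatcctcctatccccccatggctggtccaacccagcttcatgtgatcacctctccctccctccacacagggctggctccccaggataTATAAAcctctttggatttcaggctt

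Motifs were searched on both strands in windows of this length, and they were chosen after the values were seen. Of 33469 promoter windows, 5.59% held the E-box CACGTG that begins at position -203 of Krt75, counted back from -1 at the base before the start. The letters AGAACA, a half-site of the glucocorticoid receptor, begin at -59 of RGD1560925 and were in 17.5% of windows. The TATA box TATAAA begins at -26 of Myoc and was in 12.9%. The windows of Myh6 and Muc4 lie within the annotated span of the gene, and that of Lamb3 does in part, so their sequences are not printed. The window of Myh6 held TAATCC, bound by the photoreceptor factors CRX and OTX2, which was in 6.34% of windows. None of these letters, nor the AP-1 site TGANTCA (6.34% of windows), the GRHL site AACCNGTT (1.76%) or the NRL half-site TGCTGAC (3.53%), was in the windows of Muc4 and Lamb3.

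The libraries of the NT and Sham groups lay nearest to one of their own group over all genes. In the cell-treated groups only MSC replicate 1 did so, and the other 8 libraries lay nearest to a library of another group. MSC replicate 1 and MSCEPO replicate 3 stood farthest from any other library, at Euclidean distances of 63.2 and 58.6 against 27.5 to 41.8 for the other 13 libraries. Some differences of the chosen genes are also given with MSC replicate 1 or MSCEPO replicate 3 left out. The levels, medians and counts of the gene lists described below are given only with all libraries included. How far they rest on these libraries was not tested.

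The level of Muc4 was highest in Sham retinas. Its rlog value was 6.92, 7.56 and 6.01 in the NT libraries and 8.46, 8.73 and 8.65 in the Sham libraries. In the MSC libraries it was 7.47, 7.90 and 8.11, in the MSCEPO libraries 5.74, 6.45 and 6.39, and in the DPSC libraries 6.74, 6.78 and 5.68. Every Sham library was above the other 12, the MSC libraries came next apart from NT replicate 2, and the MSCEPO and DPSC libraries overlapped with each other and with NT. The difference from the Sham mean was -0.79 in MSC, -2.42 in MSCEPO and -2.21 in DPSC. From the NT mean it was 0.99 in MSC, -0.64 in MSCEPO and -0.43 in DPSC, so the low levels of Muc4 in MSCEPO and DPSC retinas are low against Sham and overlap with NT. With 1 library left out in turn the difference from NT ran from 0.59 to 1.36 in MSC, from -1.04 to -0.27 in MSCEPO and from -0.84 to -0.065 in DPSC.

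Krt75 had its highest values in the same group. Its rlog value was 4.76, 5.24 and 4.96 in NT and 5.57, 6.17 and 5.66 in Sham libraries. It was 4.88, 4.95 and 5.09 in MSC, 4.39, 4.33 and 4.75 in MSCEPO, and 4.598, 4.50 and 4.35 in DPSC libraries. The 3 Sham libraries were again above all others, and all MSCEPO and DPSC libraries were below all NT libraries, although MSCEPO replicate 3 and NT replicate 1 lay 0.0065 apart. Krt75 differed from the Sham mean by -0.83 in MSC, -1.31 in MSCEPO and -1.32 in DPSC, and from the NT mean by -0.02, -0.50 and -0.51 in the same order.

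Myh6 and RGD1560925 were at like levels in NT and Sham and lower in all cell-treated groups. The rlog value of Myh6 was 9.02, 9.43 and 9.25 in NT and 8.79, 9.29 and 9.32 in Sham libraries. It was 7.76, 8.07 and 7.65 in MSC, 7.80, 7.94 and 7.86 in MSCEPO, and 8.64, 7.72 and 8.23 in DPSC libraries. All 9 cell-treated libraries lay below all 6 others, with DPSC replicate 1 nearest to the Sham libraries. Against Sham the difference was -1.31 in MSC, -1.27 in MSCEPO and -0.94 in DPSC, and against NT it was -1.41, -1.37 and -1.04. Myh7, the neighbouring gene of the cardiac myosin beta chain, is near-identical in sequence, and RefSeq lists its name as a synonym of Myh6, so reads may be split between the 2 genes.

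The rlog value of RGD1560925 was 12.84, 13.08 and 13.08 in NT and 12.95, 12.81 and 13.20 in Sham libraries. In MSC libraries it was 11.61, 11.79 and 12.15, in MSCEPO libraries 12.04, 12.07 and 12.39, and in DPSC libraries 11.86, 11.52 and 11.91. The lowest Sham value was above the highest cell-treated value, that of MSCEPO replicate 3. The difference from the Sham mean was -1.13 in MSC, -0.82 in MSCEPO and -1.22 in DPSC, and from the NT mean -1.15, -0.83 and -1.24. Without MSCEPO replicate 3 the MSCEPO difference was -0.93 from Sham and -0.94 from NT.

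Lamb3 and Myoc were highest in NT retinas and already lower in Sham. The rlog value of Lamb3 was 8.84, 9.03 and 9.34 in NT and 7.68, 7.21 and 7.34 in Sham libraries. It was 6.10, 6.25 and 6.14 in MSC, 5.998, 5.87 and 7.42 in MSCEPO, and 7.92, 6.10 and 7.35 in DPSC libraries. NT was above all others and the MSC libraries were below all Sham libraries, but MSCEPO replicate 3 and DPSC replicates 1 and 3 were within or above the Sham range. The difference from NT was -2.91 in MSC, -2.64 in MSCEPO and -1.94 in DPSC, and from Sham -1.25, -0.98 and -0.29. Without MSCEPO replicate 3 the MSCEPO differences were -3.14 from NT and -1.48 from Sham, and without DPSC replicate 2 the DPSC difference from Sham was 0.23.

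The rlog value of Myoc was 11.04, 11.79 and 11.16 in NT and 9.27, 9.55 and 10.15 in Sham libraries. It was 10.66, 8.72 and 7.07 in MSC, 8.61, 10.33 and 8.62 in MSCEPO, and 10.47, 8.56 and 9.89 in DPSC libraries. Every NT library was above the other 12, and each cell-treated group had 1 library above the Sham range and at least 1 below it. The SD of Myoc was 1.80 in MSC, 0.99 in MSCEPO and 0.98 in DPSC against 0.40 in NT and 0.45 in Sham (n = 3 each). The difference from NT was -2.51 in MSC, -2.15 in MSCEPO and -1.69 in DPSC, while from Sham it was -0.84, -0.47 and -0.02. The MSC difference from NT was -3.44 without MSC replicate 1 and -1.64 without MSC replicate 3, and from Sham it was 0.03 without MSC replicate 3. The MSCEPO difference from Sham ran from -1.04 to -0.19 with 1 library left out.

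**Figure D1:**
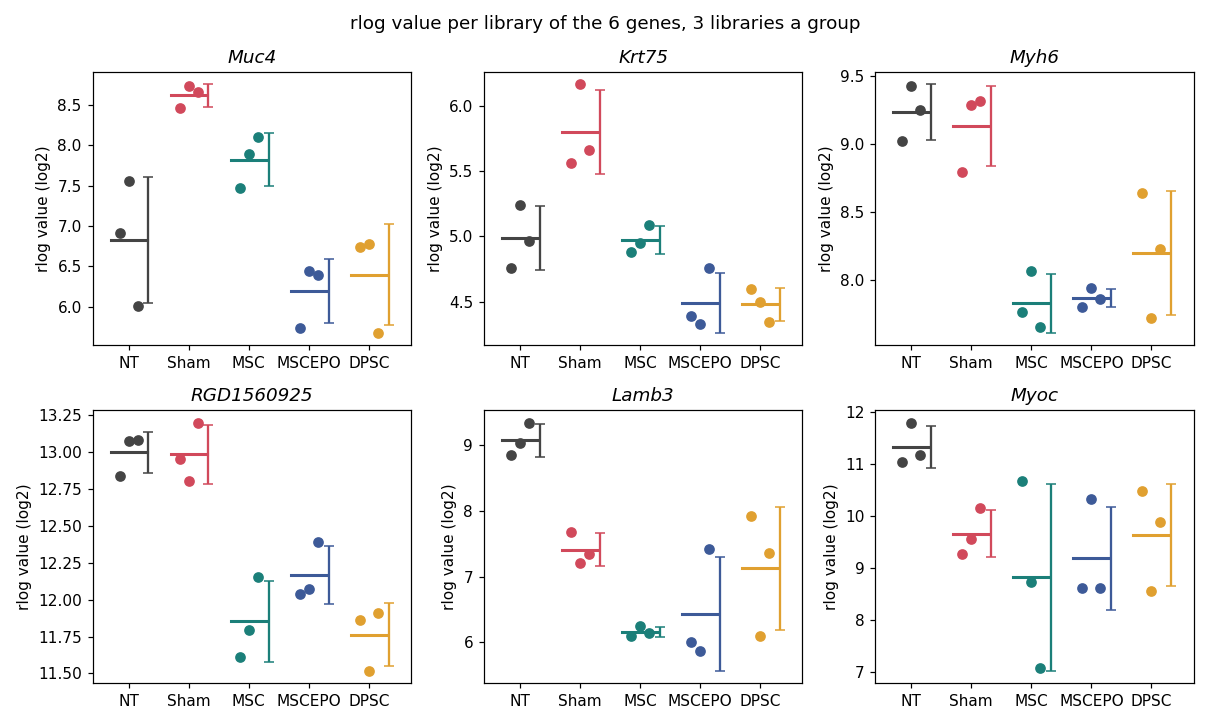
The rlog value (log2, vertical axis) of each gene in each library, by group, with 3 libraries a group. Dots are libraries, the horizontal line is the group mean and the bar is its SD. The Sham libraries of Muc4 and Krt75 sit above all others, the NT and Sham libraries of Myh6 and RGD1560925 above all cell-treated ones, and the NT libraries of Lamb3 and Myoc above all others.

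Of the 36 differences of a cell-treated group from Sham or NT, 35 were below 0 and 20 were more than 2-fold lower. The exception was Muc4 in MSC retinas against NT. The choice of the genes favours falls here, though each gene was chosen in only some of these comparisons. The cell-treated groups share the Sham and NT libraries, so the differences are not independent of each other. In 27 of the 36 the groups did not overlap. Against Sham, 5 of 6 genes lay lower without overlap in MSC, where 11.3% of all tested genes did, 4 of 6 in MSCEPO (6.81% of all) and 4 of 6 in DPSC (5.07%). Against NT it was 4 of 6 in MSC (21.2% of all), 5 of 6 in MSCEPO (15%) and 5 of 6 in DPSC (15.7%). The median difference of the 6 genes from Sham was -0.99 in MSC, -1.12 in MSCEPO and -1.08 in DPSC, and from NT -1.28, -1.10 and -1.14, while the median over all tested genes was within 0.01 of 0 in each of these comparisons.

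**Figure D2:**
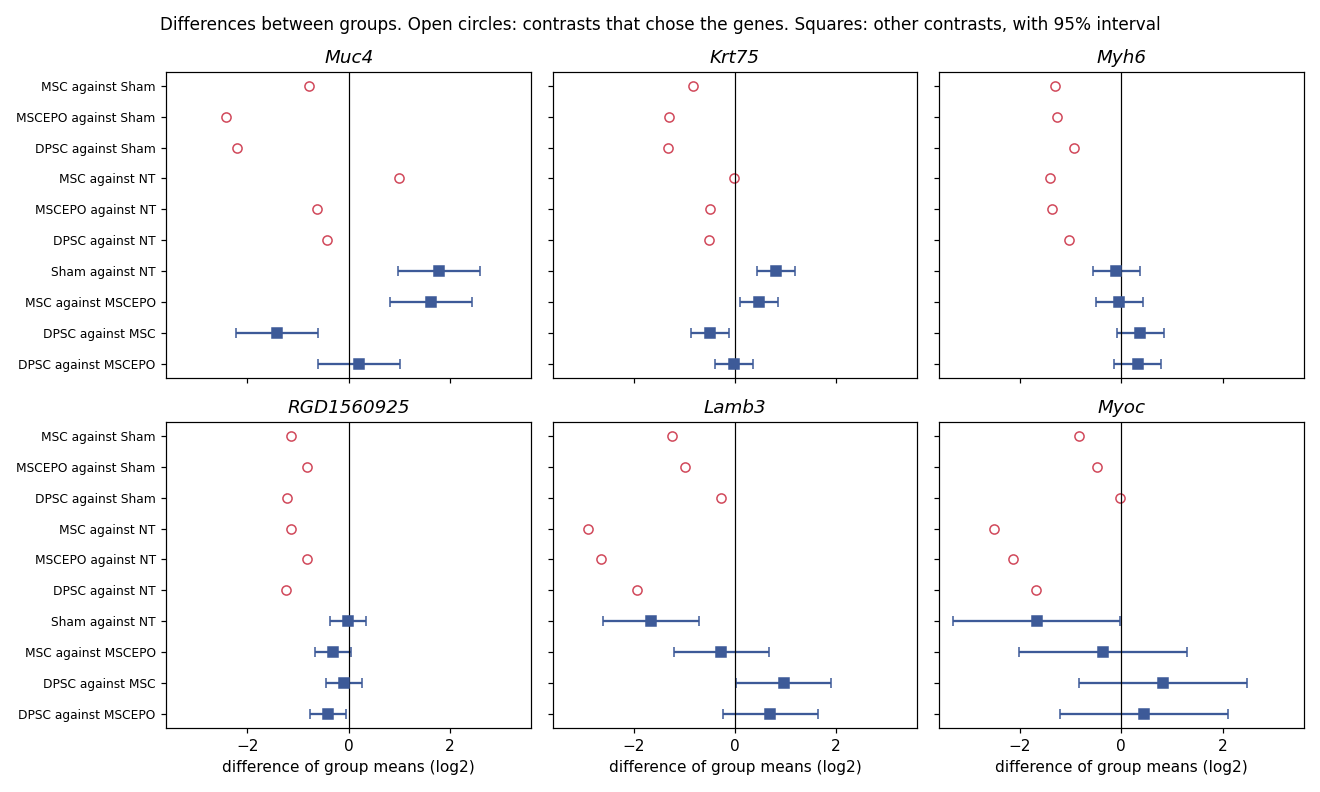
Difference of group means in rlog value (log2 scale) for each gene in the comparisons with Sham and with NT that chose the genes and in the 4 tested comparisons, the latter with 95% confidence intervals. Lamb3 and Myoc lie farthest below 0 against NT, at -2.91 and -2.51 in MSC, and Muc4 lies farthest below 0 against Sham, at -2.42 in MSCEPO.

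In the order of falls over all tested genes, the genes stood high in different comparisons. Lamb3 was 1 and Myoc 3 for MSC against NT, with the RPE gene Rgr (-2.74) between them and the rod transducin gene Gnat1 (-2.31) just after Myoc. Muc4 was 5 for MSCEPO against Sham. The nearest genes with a symbol there were the basal keratin gene Krt5 (-2.74) above it and Clca4l (-2.31), a gene of the chloride channel accessory family, below it. Myh6 was 11, Lamb3 13 and RGD1560925 18 for MSC against Sham. Other places were low: Myoc was 6518 of 15424 for DPSC against Sham, Krt75 was 7300 for MSC against NT and Muc4 was 14388 there. The rule gives no limit of size, and genes outside the 6 fell farther, such as the corneal keratin gene Krt12, at -3.75 for MSCEPO against Sham.

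The comparison of Sham with NT asks how NaIO3 and the vehicle injection together go with the level of each gene without cells. Muc4 and Krt75 were chosen for falls from Sham, so the choice favours a higher level in Sham here. Muc4 was higher in Sham by 1.79 on the log2 scale (SE 0.37, 95% interval 0.98 to 2.60), which is 3.45-fold, and passed the test (limma adjusted p = 0.0468). It was the only one of the 6 among 45 genes that did, 0.292% of those tested. The call of Muc4 was lost in 7 of 15 alternative settings, among them leaving out any of 5 libraries (NT replicates 1 and 3 and each of the 3 Sham libraries), with an adjusted p between 0.00119 and 0.204 over all 15 settings and a value between 1.38 and 2.15. Krt75 was higher by 0.81 (SE 0.17) with an adjusted p of 0.0507, which misses the threshold as its size does.

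Lamb3 and Myoc were chosen for falls from NT, so the choice favours a lower level in Sham here. For Lamb3 the Sham minus NT difference was -1.66 (SE 0.43, interval -2.60 to -0.72, adjusted p = 0.107) and for Myoc -1.67 (SE 0.76, interval -3.33 to -0.02, adjusted p = 0.398). Neither passed, though no Sham library overlapped with NT for either gene, as held for 31.9% of all tested genes in one direction or the other. Both passed when the NT and Sham libraries were fitted alone, and with libraries weighted by quality. Myh6 and RGD1560925 differed by -0.10 (interval -0.57 to 0.36, adjusted p = 0.935) and -0.01 (interval -0.37 to 0.34, adjusted p = 1). Myh6 and RGD1560925 were chosen for falls from Sham in MSC, so the choice favours a higher level in Sham here. The intervals of these 2 genes, which are not corrected for that choice, leave out a 2-fold difference between Sham and NT in either direction.

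MSC and MSCEPO retinas differ in the erythropoietin that the injected cells carry, but only the MSCEPO cells were also transduced, given a GFP marker and sorted, so these cannot be told apart from erythropoietin. No gene of the 15424 passed the limma test (0% called), 585 (3.79%) had an unadjusted p under 0.05, and Muc4 and Krt75 were the members among these. Muc4 was higher in MSC than in MSCEPO by 1.63 (interval 0.82 to 2.44, adjusted p = 0.754), with 3 of 3 MSC libraries above all MSCEPO libraries, which held for 2.18% of all genes in this direction. Krt75 was higher by 0.48 (interval 0.11 to 0.85, adjusted p = 0.754) with no overlap. Muc4 and Krt75 were chosen for falls in MSCEPO, which favours low MSCEPO values. Myh6, RGD1560925 and Myoc were chosen for falls in MSC, which favours low MSC values, and Lamb3 for falls in both groups. For Myh6 the difference was -0.04 (interval -0.51 to 0.42), for RGD1560925 -0.32 (interval -0.67 to 0.04), for Lamb3 -0.27 (interval -1.21 to 0.67) and for Myoc -0.37 (interval -2.02 to 1.29). The interval for Myoc is wide enough to hold a 2-fold difference either way.

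DPSC retinas were set against the other cell-treated groups in the same way. Against MSC, no gene passed (0% called), 1083 (7.02%) had an unadjusted p under 0.05, and 3 of these were Muc4, Krt75 and Lamb3. Muc4 differed by -1.42 (interval -2.23 to -0.61, adjusted p = 0.587) and Krt75 by -0.49 (interval -0.87 to -0.12, adjusted p = 0.587), both lower without overlap as 3.68% of all genes were, and Lamb3 by 0.96 (interval 0.02 to 1.91, adjusted p = 0.692) with overlap. Lamb3 was chosen for falls in MSC and MSCEPO, which favours low values in both and so a higher level in DPSC against either. Against MSCEPO, no gene passed (0% called) and 382 (2.48%) had an unadjusted p under 0.05. RGD1560925 was the member among them, with a difference of -0.41 (interval -0.76 to -0.05, adjusted p = 0.996), lower without overlap as 1.95% of all genes were. The difference of Muc4 was 0.21 (interval -0.60 to 1.02) and that of Krt75 was -0.01 (interval -0.39 to 0.36).

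The levels of the 6 genes did not follow one course. As a measure of likeness each gene was centred on its own mean and the root mean square (RMS) difference over the 15 libraries was taken. Myh6 and RGD1560925 were the closest pair, with an RMS difference of 0.344 against SDs of 0.654 and 0.565 over the libraries. Krt75 and RGD1560925 followed at 0.451, and Muc4 and Krt75 differed by 0.619. Lamb3 and Myoc, both highest in NT, differed by 0.962, and Muc4 and Myoc were the farthest pair at 1.68.

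The nearest genes were sought among tested genes with a symbol. Those with the most similar course to Muc4 were Clca4l (RMS 0.312), the keratin gene Krt80 (0.380) and Emp1 (0.499), which encodes an epithelial membrane protein. Clca4l was at 8.17, 7.94 and 8.10 in Sham and 5.36, 6.01 and 5.92 in MSCEPO libraries, so its Sham libraries too were above all others. Nearest to Krt75 were Scel (0.217), which encodes sciellin of the cornified envelope, Trim29 (0.241) and Nccrp1 (0.242).

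Nearest to Myh6 were Mast2 (0.281), a kinase gene, Sag (0.309), the arrestin of rods, and Cds1 (0.318). Mast2 was also the second nearest of RGD1560925 (0.280), after Rgs20 (0.266), a regulator of G protein signalling, and before Tmem116 (0.293). Sag was at 16.57, 16.58 and 16.70 in NT, 16.36, 16.36 and 16.04 in Sham, 15.55, 15.33 and 15.47 in MSC, 15.33, 15.20 and 15.62 in MSCEPO and 15.85, 15.33 and 16.04 in DPSC libraries. All of its MSC and MSCEPO libraries were below all Sham libraries, and DPSC replicate 3 was level with the lowest Sham library.

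The gene nearest to Lamb3 was Gnat1 (0.304), the alpha subunit of rod transducin, followed by the hexokinase gene Hk2 (0.383) and Serinc4 (0.460). Gnat1 was at 15.19, 14.71 and 16.28 in MSCEPO and 16.76, 15.21 and 16.83 in DPSC libraries. As in Lamb3, MSCEPO replicate 3 was the high library and DPSC replicate 2 the low library of its group. Nearest to Myoc were Rgr (0.279), the RPE and Muller cell opsin, Ttr (0.368), the transthyretin that the RPE secretes, and Slc16a8 (0.450), a lactate transporter of the RPE. Rgr was at 11.29, 9.75 and 8.09 in MSC libraries and at 9.96, 11.15 and 9.88 in MSCEPO libraries, with the same high and low MSC library as Myoc.

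**Figure D3:**
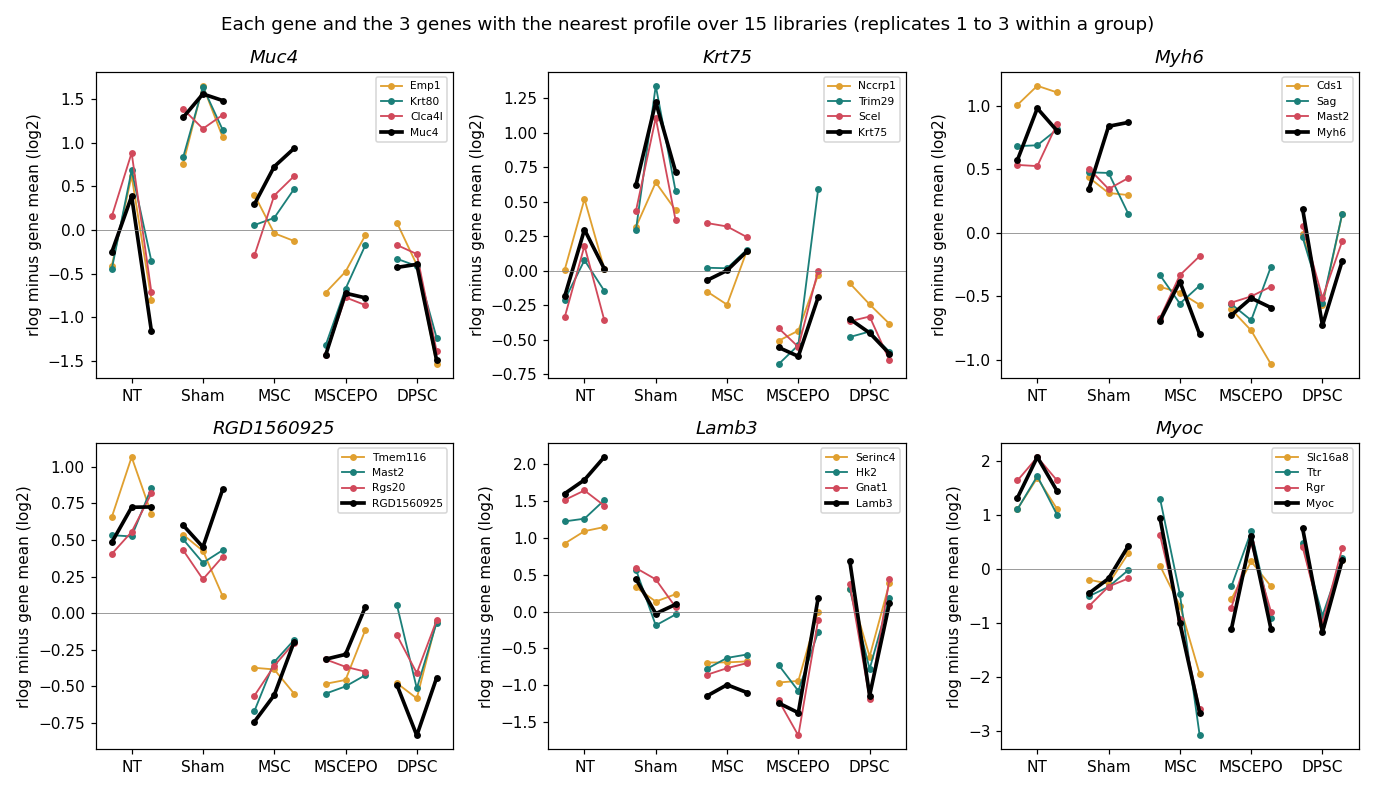
The rlog value minus the gene's own mean (log2, vertical axis) over the 15 libraries for each of the 6 genes and its 3 nearest genes. Lines join libraries for reading only, since replicates have no order. Gnat1 runs with Lamb3 and Sag with Myh6, at RMS differences of 0.304 and 0.309, and Rgr runs with Myoc at 0.279.

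None of the 6 genes is in a list of 14 tested rod genes written from known markers, but the values do not set all of them apart from rod genes. Of the tested genes with a symbol, Gnat1 was the nearest to Lamb3 and Sag was among the 3 nearest to Myh6. The genes are therefore described here by their falls and not as genes without photoreceptor expression. The level of the rod list, its mean rlog value minus the NT mean, was -0.83 to -0.63 in Sham, -1.41 to -1.25 in MSC, -1.69 to -1.34 in MSCEPO and -1.47 to -0.73 in DPSC libraries. All 14 rod genes had a lower mean than NT in each cell-treated group, and 11, 12 and 4 passed the limma test as lower in MSC, MSCEPO and DPSC, where 0.985%, 1.24% and 0.259% of all tested genes did. In whole retina, fewer cells of a type and less RNA per cell cannot be told apart. The part of the rod genes in the values of Lamb3, Myh6 and RGD1560925 was not tested.

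The RPE list has 13 tested genes. Its level was -0.55 to 0.48 in NT, -0.72 to -0.12 in Sham, -1.85 to -0.01 in MSC, -1.49 to -0.28 in MSCEPO and -0.93 to 0.21 in DPSC libraries. MSC replicate 1 was the high and MSC replicate 3 the low library of its group both for the list and for Myoc. The same order of the MSC libraries held for the ciliary body list (1.09, 0.29 and -0.13), the T and NK cell list and the microglia list. In the MSCEPO group replicate 2 was highest for both. In the DPSC group the lowest library of the RPE list was replicate 3, while that of Myoc was replicate 2. Against NT, Rpe65, the retinoid isomerase (-1.61, adjusted p = 0.045), Rgr (-2.74, adjusted p = 0.0123) and Rdh5, a retinol dehydrogenase (-1.77, adjusted p = 0.0231), were the 3 of 13 that fell in MSC, and Rgr (-2.12, adjusted p = 0.0496) the 1 of 13 that fell in MSCEPO. Of all tested genes, 0.985% fell in MSC and 1.24% in MSCEPO against NT. The part of the RPE in the values of Myoc was not tested.

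The ciliary body and trabecular meshwork list, of the tissues known for Myoc, has 13 tested entries for 12 genes. In Sham against NT, where Myoc was lower, 2 of these entries were below 0 and the median was 0.22. The level of the list was -0.67 to 0.39 in NT and 0.11 to 0.85 in Sham libraries. Of the entries 1, Chi3l1, a secreted chitinase-like protein also made by reactive glia, rose in Sham by 2.14 (adjusted p = 0.00274). Of all tested genes, 0.292% passed in either direction there. The part of the ciliary body and trabecular meshwork in the values of Myoc was not tested.

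The corneal and conjunctival epithelium list has 13 tested genes. Its level was -0.33 to 0.31 in NT, 0.43 to 1.33 in Sham, 0.22 to 0.49 in MSC, -0.63 to 0.72 in MSCEPO and -0.66 to -0.09 in DPSC libraries. Krt12, the keratin that defines corneal epithelium, was at 6.73, 9.18 and 9.09 in NT, 9.09, 10.95 and 10.33 in Sham, 9.21, 8.998 and 8.79 in MSC, 5.94, 6.49 and 6.71 in MSCEPO and 7.02, 6.32 and 6.18 in DPSC libraries. It was thus measured in all retina libraries, and was lower in all MSCEPO libraries and in DPSC replicates 2 and 3 than in any NT library. The list as a whole differed between the groups. In MSCEPO against NT 5 of the 13 genes were below 0, with a median of 0.19 that was -0.055 after quantile normalization. In DPSC against NT 10 of the 13 were below 0 (median -0.23, or -0.36 after quantile normalization), and in MSC 1 of the 13 was (median 0.34). Against Sham, 13 of the 13 were below 0 in MSC (median -0.48), 9 in MSCEPO (median -0.26) and 12 in DPSC (median -0.80). In MSCEPO replicate 3, Krt5 stood at 8.87 against 5.35 and 5.60 in the other MSCEPO libraries, while in that library Krt75 was the highest of its group and Muc4 lay between its values in the others. Between Sham and NT, 0 of the 13 genes passed the limma test, 7 had an unadjusted p under 0.05, as 12.4% of all tested genes did, and 12 of 13 were above 0, with a median difference of 0.78. The part of surface epithelium in the values of Muc4 and Krt75 was not tested.

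**Figure D4:**
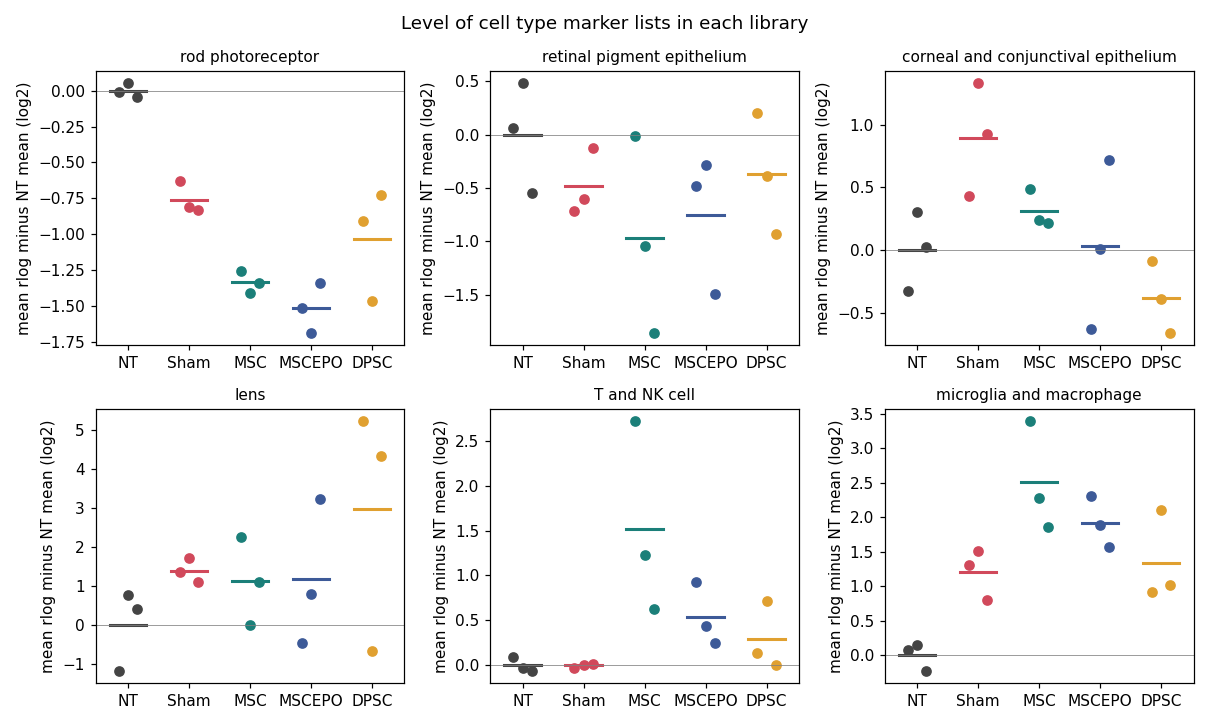
Level of 6 cell type marker lists in each library, the mean rlog value of the list minus its NT mean (log2, vertical axis), by group. Dots are libraries and lines are group means. The rod list lies below NT in all NaIO3 groups, the corneal list is highest in Sham (0.43 to 1.33) and the RPE list spans -1.85 to -0.01 in MSC.

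The T and NK cell list was at -0.03 to 0.02 in Sham, 0.62 to 2.72 in MSC, 0.24 to 0.92 in MSCEPO and 0.0071 to 0.72 in DPSC libraries. The microglia and macrophage list was at 0.81 to 1.52 in Sham, 1.85 to 3.39 in MSC, 1.56 to 2.31 in MSCEPO and 0.91 to 2.10 in DPSC libraries, so that DPSC overlapped with Sham in both lists. The lens list was at -1.18 to 0.76 in NT, 1.09 to 1.72 in Sham and 0.0057 to 2.26 in MSC libraries. It was at -0.46 to 3.24 in MSCEPO and -0.66 to 5.21 in DPSC libraries. Its highest libraries were DPSC replicates 1 (5.21) and 3 (4.34) and MSCEPO replicate 3 (3.24), which were also the highest cell-treated libraries of Lamb3. The part of these in the 6 genes was not tested.

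The other genes of each family show how far the 6 stand for their kin. Of 16 other keratins tested, 0 passed the limma test in Sham against NT (7 at an unadjusted p under 0.05, against 12.4% of all genes). The 16 had a median difference of 0.43 there and 2 were below 0. The median over all tested genes was 0.00. Krt5 differed by 1.90, Krt13 by 1.82 and Krt12 by 1.79 there. Against Sham, 15 of the 16 were below 0 in MSC (median -0.59), 13 in MSCEPO (median -0.50) and 11 in DPSC (median -0.51). The keratins of simple epithelia Krt8 and Krt18 were near 0, at 0.01 and -0.12 in MSCEPO against Sham, while the epithelial differentiation keratins Krt4 and Krt13 were at -2.22 and -2.24. By limma, 0 of the 16 passed against Sham, where 0% of all genes did in MSC, 0.0195% in MSCEPO and 0.013% in DPSC, and 3, 7 and 7 of the 16 had an unadjusted p under 0.05, as did 13.3%, 8.31% and 2.37% of all genes. One of the 16, Krt12, passed as lower in MSCEPO against NT (-1.96, adjusted p = 0.0489), as 1.24% of all genes did.

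Muc4 had the largest Sham minus NT difference of the mucins tested. Of the other 6, 0 passed (1 at an unadjusted p under 0.05, against 12.4% of all genes), and their median difference was 0.16. The largest of these was Muc20, at 0.55 (adjusted p = 0.395), followed by the endothelial sialomucin gene Emcn at 0.44 and Muc1 at 0.17. Against Sham the median of the 6 was -0.05 in MSC, -0.19 in MSCEPO and -0.11 in DPSC. Muc4 can bind the receptor ERBB2, so the ERBB receptors and their ligands were read as well. Of 12 tested entries 0 passed in Sham against NT (3 at an unadjusted p under 0.05, against 12.4% of all genes). Btc, the ligand betacellulin, came nearest, at 0.94 with an adjusted p of 0.0179 but less than 2-fold, and it rose against NT in MSC (1.21), MSCEPO (1.12) and DPSC (1.04), the only one of the list to pass there, where 5.71%, 2.33% and 0.525% of all genes passed as higher. Erbb2 and Erbb3 differed between Sham and NT by 0.47 and 0.47.

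Of 17 other cardiac sarcomere genes tested, 0 passed in Sham against NT or in a cell-treated group against Sham or NT. In Sham against NT 0 had an unadjusted p under 0.05, which 12.4% of all genes had. Against Sham 1 to 3 had one, where 13.3% of all genes did in MSC, 8.31% in MSCEPO and 2.37% in DPSC. Against NT 3 to 4 had one, where 30.7% of all genes did in MSC, 27% in MSCEPO and 16.8% in DPSC. Myom2, a protein of the sarcomere M-band, was lower than NT without overlap in all 3 cell-treated groups, by -0.68 in MSC (adjusted p = 0.0172), -0.59 in MSCEPO (adjusted p = 0.0409) and -0.52 in DPSC (adjusted p = 0.127), each less than 2-fold. Their median difference was 0.00 in Sham against NT, -0.08 in MSC against Sham, -0.03 in MSCEPO against Sham and -0.10 in MSC against NT, the last of which was -0.37 after quantile normalization. Myh7 was at 6.33 to 6.71 in NT, 6.32 to 6.64 in Sham, 5.70 to 5.93 in MSC, 5.70 to 5.96 in MSCEPO and 5.90 to 6.27 in DPSC libraries, so it too was lower in all cell-treated libraries than in all others. The highest DPSC library (6.27) lay close to the lowest Sham library (6.32). The share of all tested genes with such a separation was not counted. Reads may be split between Myh6 and Myh7, so Myh7 may not be a separate observation. The level of the skeletal and smooth muscle list was -0.39 to 0.27 in NT, 0.11 to 0.42 in Sham, -0.30 to 0.16 in MSC, -0.02 to 0.12 in MSCEPO and -0.66 to 0.68 in DPSC libraries. Against Sham its median was -0.26 in MSC (7 of 11 genes below 0), 0.02 in MSCEPO (5 of 11) and -0.001 in DPSC (6 of 11). After quantile normalization these medians were -0.41, -0.07 and -0.04. In MSC the smooth muscle genes Acta2 (-1.65, adjusted p = 0.43) and Myh11 (-1.27, adjusted p = 0.462) were lower than in Sham without overlap. The part of muscle in the values of Myh6 was not tested.

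Lamb3 went the other way from most laminins. Of 10 other chains, all 10 were above 0 in Sham against NT, where 0 passed (3 at an unadjusted p under 0.05, against 12.4% of all genes) and the median was 0.38, and 9 of 10 were above 0 in MSC against NT, where 0 passed (4 at an unadjusted p under 0.05, against 30.7% of all genes) and the median was 0.32, or 0.03 after quantile normalization. Lamc1 (0.98, adjusted p = 0.0145) and Lamb1 (0.77, adjusted p = 0.0245) came nearest to passing there but were less than 2-fold. Lama3, the alpha chain of laminin-332, differed from NT by 0.01 in MSC. Of 13 tested entries for hemidesmosome and laminin receptor genes, 0 passed in Sham against NT (4 at an unadjusted p under 0.05, against 12.4% of all genes), and 1, Itga6, the integrin subunit that pairs with beta 4 in hemidesmosomes, rose against NT in MSC (1.08, adjusted p = 0.0109) and MSCEPO (1.03, adjusted p = 0.0178), where 5.71% and 2.33% of all genes rose.

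Of the other 12 olfactomedin-domain genes tested beside Myoc, 0 passed in any comparison of NaIO3 groups with Sham or NT. In these comparisons 0 to 2 had an unadjusted p under 0.05, against 2.37% to 30.7% of all genes. The median difference of the 12 from NT was 0.10 in Sham, 0.00 in MSC and 0.15 in MSCEPO. Olfml2a, the largest in Sham against NT, was higher by 1.06 (adjusted p = 0.481) and Olfm3 was lower by 0.36 (adjusted p = 0.585). Glucocorticoids raise Myoc in the trabecular meshwork, and 14 tested genes known to respond to them were read beside it. In Sham against NT, Mt2A, a metallothionein (1.54, adjusted p = 0.0164), and Cebpd, a transcription factor also induced in inflammation (1.43, adjusted p = 0.00483), rose and 0 fell, where 0.292% of all genes passed in either direction, with a list median of 0.01. Of the 14 genes, 6 were below 0 there. Sgk1 (-0.87, adjusted p = 0.36) and Dusp1 (-0.79, adjusted p = 0.481) were lower in Sham and Mt1 (0.79, adjusted p = 0.465) was higher. None of these passed, and all were without overlap, as 31.9% of all genes were in either direction. Mt2A and Cebpd were also higher against NT in MSC (1.74 and 2.22), MSCEPO (1.97 and 2.46) and DPSC (1.45 and 1.87) and passed the test, where 5.71%, 2.33% and 0.525% of all genes rose. The kinase gene Sgk1 fell in MSC (-1.26, adjusted p = 0.0366) and MSCEPO (-1.34, adjusted p = 0.0366), where 0.985% and 1.24% of all genes fell. Against Sham, 0 of the 14 passed in MSC, MSCEPO or DPSC (1, 2 and 1 at an unadjusted p under 0.05, against 13.3%, 8.31% and 2.37% of all genes).

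**Figure D5:**
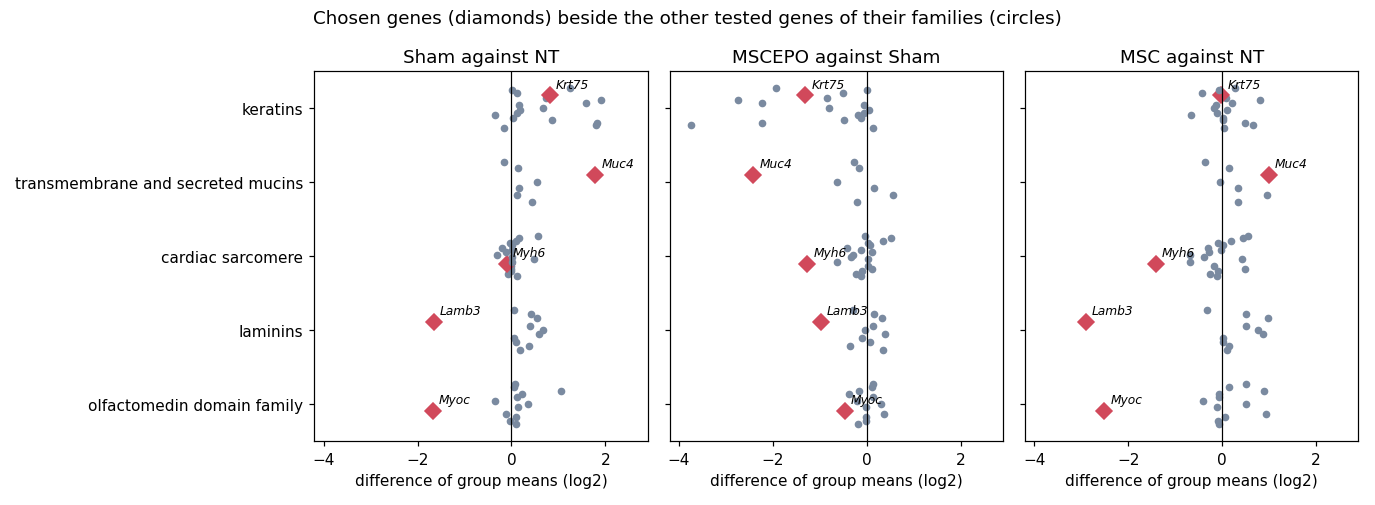
Differences of group means in rlog value (log2, horizontal axis) in 3 comparisons for each family, with the chosen gene as a diamond and the other tested genes as circles. Keratins lie mostly below 0 in the cell-treated groups against Sham (median -0.50 in MSCEPO), while the other laminins, olfactomedin and cardiac sarcomere genes scatter around 0 there (medians 0.10, -0.01 and -0.03) and Lamb3, Myoc and Myh6 lie below it.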

How the data were processed

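Whole rat retinas were sequenced as mRNA, 3 libraries in each of 5 groups that the labels name. Reads were assigned by the authors to the rat transcriptome (Rnor_6.0) with Salmon 1.1.0 and collapsed to genes by tximport, and the authors deposited log2 values, the regularized log (rlog) of DESeq2, which are corrected for library size and shrunken. No counts were used, so the depth per library is unknown and no counting interval is given. A table of the whole series has 15 more sample columns, left unused, which repeat these values with 0 genes differing. Of 20375 genes, 2591 had no symbol.

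The 6 genes, the 17 gene lists (287 entries), the motifs and the tests were chosen with earlier results of these data known. The 15424 genes (75.7%) with a mean rlog of 3.32 or more, which is log2 of 10, were kept. R 4.3.3 with limma 3.58.1 fitted 5 group means to 15 libraries, with variances moderated on a trend, since a count model could not be used on rlog values. Benjamini-Hochberg adjustment ran over all genes kept, and a gene passed, rose or fell at an adjusted p under 0.05 and over 2-fold. An exact permutation test of 3 against 3 libraries cannot give a p under 0.1 and was not used. The test was checked on simulated data. No 2 libraries held identical values. Deviations from the group means of same-numbered MSC and MSCEPO libraries correlated at 0.263, 0.159 and 0.279, while same-numbered pairs over all groups ran from -0.441 to 0.653. The labels give no pairing, so whether the numbers pair libraries is not known. The main fit took the libraries as unpaired, and a block for the number was used only as an alternative.

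Genes named were the 6, the 3 genes nearest to each in centred profile, the neighbours in the order of falls, the genes of each family list that passed or had the largest Sham minus NT differences, and the first 3 markers of each cell type list. Nearest genes and neighbours were taken only from tested genes with a symbol. Krt4, Krt8, Krt18, Rdh5, Itga6 in the cell-treated groups, Lama3, Myh7, Myom2, Acta2, Myh11 and Chi3l1 fall partly outside this rule and were chosen after their values were seen. Neighbouring genes on the chromosome were not used here, because the gene table is of assembly GRCr8. Promoter sequences are those of RefSeq on GRCr8. Alternatives were another filter, fits of fewer libraries, a block for the replicate number, other scalings, library weights, no fold threshold and each library left out in turn. Figures were drawn with Python 3.11.15 and matplotlib 3.10.9. Not every gene under the rule is reported here.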

Additional observations from a re-analysis of the deposited data

Results flagged for a closer look

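Muc4 moved in opposite directions from the NT mean in different cell-treated groups. All 3 MSC libraries were above the NT mean, by 0.99 on average, and all 3 MSCEPO libraries were below it, by -0.64 on average, so that the groups differed by 1.63 on the log2 scale. With 1 library left out in turn, the difference from NT ran from 0.59 to 1.36 in MSC, from -1.04 to -0.27 in MSCEPO and from -0.84 to -0.065 in DPSC. The limma test of the difference between MSC and MSCEPO gave an adjusted p of 0.754. All 3 DPSC libraries were also below the NT mean, by -0.43 on average, and the 2 groups differed by 1.42 (DPSC against MSC, adjusted p = 0.587). The NT libraries themselves ran from 6.01 to 7.56 and overlapped with MSC and with DPSC.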

How the results depend on the processing

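In Sham against NT, 45 genes passed, and 177 did with these 2 groups fitted alone, 160 with library weights and 137 by adjusted p alone, against 17 to 28 with 1 library left out. Of the 6 genes 1 passed, Muc4, and 0 without a filter (adjusted p = 0.0599) or after quantile normalization (adjusted p = 0.0734), 3 with the 2 groups alone or with library weights (Lamb3 and Myoc in addition), and 0 to 1 with 1 library left out. Muc4 had an adjusted p of 0.141 without NT replicate 1, 0.204 without NT replicate 3 or Sham replicate 2, 0.113 without Sham replicate 1 and 0.151 without Sham replicate 3. For MSC against MSCEPO, 0 genes passed, and 1 did in the 12 libraries without DPSC and 0 to 1 with 1 library left out. For DPSC against MSC, 0 genes passed, and 0 to 17 did with 1 library left out, 17 without DPSC replicate 2 and 7 without MSC replicate 3. For DPSC against MSCEPO, 0 genes passed, 373 did with library weights, with Lamb3 (1.84) the 1 of the 6, and 0 to 2 did with 1 library left out. The cause of these shifts was not tested. The median of all genes moved by less than 0.06 under the other scalings.

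Signs changed for differences that had not passed, and the range with 1 library left out is given with the libraries that turned the sign. In Sham against NT, RGD1560925 was 0.12 after quantile normalization, 0.080 with library weights and -0.12 to 0.080 with 1 library left out (NT replicate 2 or 3, Sham replicate 1 or 2), and Myh6 was -0.21 to 0.068 (Sham replicate 1). In MSC against MSCEPO, Lamb3 was 0.24 with library weights and -0.55 to 0.23 (MSCEPO replicate 3), Myh6 was -0.16 to 0.047 (MSC replicate 3), and Myoc was -1.29 to 0.51 (MSC replicate 3 and MSCEPO replicate 2). In DPSC against MSC, RGD1560925 was -0.21 to 0.061 (MSC replicate 3 and DPSC replicate 2), and Myoc was -0.053 to 1.74 (MSC replicate 3). In DPSC against MSCEPO, Krt75 was 0.053 after quantile normalization, 0.23 with library weights and -0.093 to 0.12 (MSCEPO replicate 3 and DPSC replicate 3), and Muc4 was -0.020 to 0.57 (MSCEPO replicate 1). Of the untested differences, Myoc in DPSC against Sham was 0.23 without Sham replicate 3 and 0.52 without DPSC replicate 2, and Krt75 in MSC against NT was 0.11 without NT replicate 2 and 0.029 without MSC replicate 1.

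Over all groups 12 of 30 same-numbered pairs had a correlation over 0.1, from -0.441 to 0.653, and all 3 pairs did so only between MSC and MSCEPO. With the replicate number as a block, 56 genes passed in Sham against NT, Muc4 kept its call (adjusted p = 0.0401), and 0 genes passed in the 3 comparisons between cell-treated groups. In MSC against MSCEPO, 3 of the 6 rather than 2 had an unadjusted p under 0.05 with the block, RGD1560925 in addition.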
